A study of Danio rerio with 24 samples.

Results

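The comparison described here followed gene expression between 12 and 18 h post-fertilization (hpf) in zebrafish embryos whose parents had been fed a vitamin E (VitE) deficient diet (E– embryos). It set the 4 E– pools of 18 hpf against the 4 E– pools of 12 hpf, chosen by their diet and time labels alone, which is 8 of the 24 pools in the series. The remaining pools were E– embryos of 24 hpf and, at each of the 3 times, embryos whose parents were given a VitE sufficient diet (E+ embryos), again 4 pools a group. All 6 groups were embryos of the tropical 5D strain, so diet and hour were the labelled differences. Each pool held RNA of 10 whole embryos of normal appearance, so embryos that developed abnormally are not represented. Embryos were also staged by landmarks such as the number of somites, and only those at the landmarks of their hour were used. Embryos off that stage are therefore missing under both diets. Adults spawned in groups and no label ties a pool to a clutch, so each p-value below measures the spread between these pools.

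VitE, α-tocopherol, is the lipid-soluble antioxidant that stops the chain reaction of lipid peroxidation in membranes. A fish embryo receives it from the mother, in the yolk, so a deficient female lays deficient eggs. The hours from 12 to 18 hpf belong to the segmentation period, when somites bud from the presomitic mesoderm in step with an oscillating gene network, the tail extends, the eye, ear and brain regions take shape, and muscle, blood, pigment and neuron precursors begin to differentiate. The embryo feeds on yolk lipoproteins throughout.

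RNA was measured by 3′ end sequencing, in which reads fall near the end of each transcript and are counted once per gene. E– libraries held 15387327 to 17761725 reads assigned to genes at 12 hpf and 14473763 to 16221517 at 18 hpf. A total of 19597 genes passed the filter on low counts. Levels are given in CPM, counts relative to the library size after scaling for composition, and the fold change (log2FC) is 18 hpf relative to 12 hpf with its standard error (SE). Because transcripts are tagged near their ends and differ in how well they are captured, CPM values were compared between pools, not between genes. A gene was called where the false discovery rate (FDR) of edgeR's quasi-likelihood test was under 0.1, and "rose" and "fell" below are used of called genes only. Symbols in capitals are human names that the annotation gives to zebrafish genes, and an Ensembl identifier is added where several genes share one. The sources used here do not say on which strand reads were counted, so reads of overlapping and antisense genes cannot be told apart. Whole-embryo genes were present in every E– pool, with krt4 of the skin at 3681 CPM or more.

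Between 12 and 18 hpf, 4259 genes rose (21.7% of those tested) and 4003 fell (20.4%) in E– embryos. The counts of each gene list below are to be read against these shares. Larger changes went mostly upward. At a log2FC of at least 1, 2283 genes rose (11.6%) and 984 fell (5.02%), and at a size of at least 2, 990 rose and 229 fell. The 4 pools of 18 hpf lay entirely above those of 12 hpf for 3463 genes (17.7%) and entirely below for 3208 (16.4%). The median log2FC over all genes was 0.02, with quartiles of -0.38 and 0.51 and a median SE of 0.25. Without composition scaling the median moved up by 0.105 and the split was 4952 higher (62.0% of calls, against 51.5%) and 3032 lower.

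The gene with the most reads, ENSDARG00000080337, has no symbol in the annotation. It took 35.6% ± 2.44 (SD, n = 4) of gene counts at 12 hpf and 29.5% ± 1.09 at 18 hpf (exact permutation test, p = 0.0286, two-sided and the smallest 4 against 4 pools can give, 0.229 after adjustment over 8 library measures). Leaving it out gave 4258 genes higher and 4003 lower. The next by reads were the nuclear noncoding RNA malat1 (13222 to 18497 CPM, log2FC 0.48), the translation elongation factor eef1a1l1 (8385 to 6813 CPM, log2FC -0.30) and the skin keratin krt4 (4221 to 6861 CPM, log2FC 0.70).

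**Figure D1:**
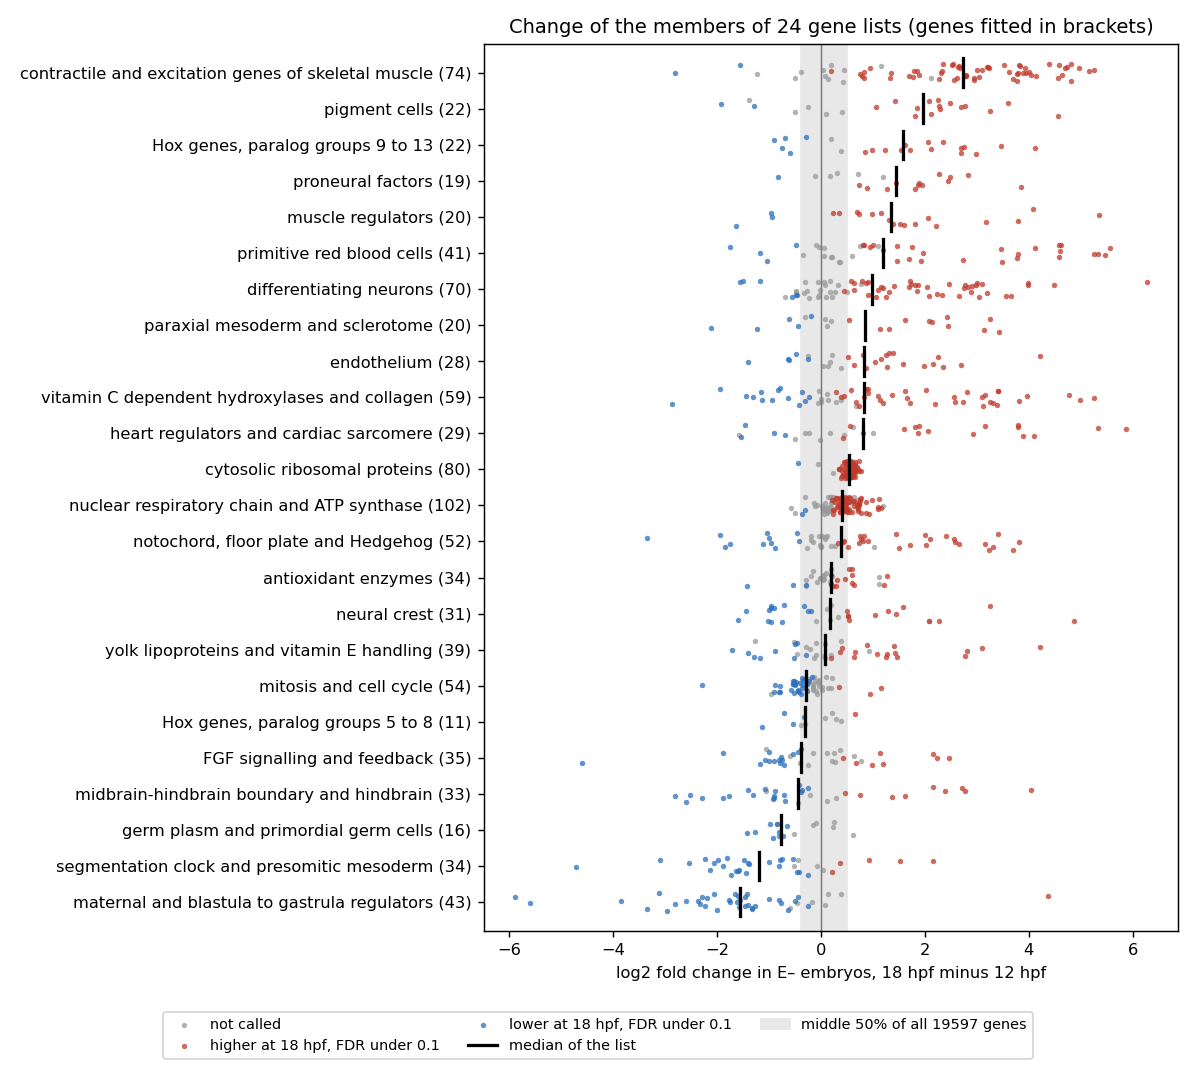
Each point is the log2FC (18 minus 12 hpf, x axis) of 1 gene in E– embryos, for 24 gene lists on the y axis with the number of genes fitted in brackets. Red and blue points passed an FDR of 0.1, black bars are list medians and the grey band spans the quartiles of all genes, -0.38 to 0.51. Contractile muscle genes sit farthest right (median 2.73) and maternal and early regulators farthest left (median -1.56).

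The 10 named genes with the largest rise and the 10 with the largest fall, among those reaching a mean of 20 CPM, came from different tissues and stages. The rises included the nuclear receptor NR2F1 (ENSDARG00000017168) of the brain (0.407 to 23.1 CPM, log2FC 5.82), the globin hbbe3, the matricellular protein POSTN (ENSDARG00000104267) and the sodium pump subunit atp1a1a.4. The falls included the eye field factor six7, the secreted Bmp modulator szl, the trunk factor cdx1a and the small heat shock protein HSPB1. Each is taken up below with its tissue. In a whole embryo, a lower level of a tissue's transcripts from fewer cells and one from less RNA per cell cannot be told apart.

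Genes of the segmentation clock and presomitic mesoderm mostly fell and those of muscle mostly rose, while genes of formed somites went both ways. Of the clock and presomitic list, 5 of the 34 fitted genes rose and 25 fell, with a median log2FC of -1.19. cdx1a (ENSDARG00000114554), a caudal-type factor of the posterior body, measured 79.3, 37.1, 92.8 and 51.4 CPM in the 12 hpf pools and 2.03, 3.19, 3.36 and 1.41 CPM in the 18 hpf pools (log2FC -4.71 ± 0.26, FDR 7.0e-17). tbx16 (ENSDARG00000007329), the T-box factor that directs tailbud cells into presomitic mesoderm, measured 163, 105, 206 and 150.3 CPM in the 12 hpf pools and 36.2, 32.4, 42.7 and 39.1 CPM in the 18 hpf pools (log2FC -2.05 ± 0.13, FDR 1.0e-15). her7 (ENSDARG00000017917), a core oscillator gene, measured 24.9, 15.8, 22.5 and 18.1 CPM in the 12 hpf pools and 4.78, 4.12, 5.34 and 6.33 CPM in the 18 hpf pools (log2FC -1.98 ± 0.21, FDR 7.0e-10). In all 3 genes every 18 hpf pool lay below every 12 hpf pool. The 12 hpf pools were more spread in CPM, but their means were higher too, and spread relative to the mean was not compared.

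Other members moved the same way: cdx4 fell from 303 to 65.0 CPM (log2FC -2.22), and mespab, which marks the next somite to form, from 6.02 to 1.37 CPM (log2FC -2.13). The summed level of the list ran from 2552 to 3316 CPM in the 12 hpf pools and from 1382 to 1504 CPM in the 18 hpf pools, so the ranges did not overlap. her12, another oscillator gene, stood at 16.2 and 16.7 CPM (log2FC 0.04, FDR 0.867). Of the list for paraxial mesoderm and sclerotome (the somite part that forms the vertebrae), 11 of the 20 fitted genes rose and 5 fell, with a median log2FC of 0.84, and their summed level stood at 346 and 352 CPM. TBX18 (ENSDARG00000036930), a T-box gene of the anterior part of each somite, measured 0.957, 1.602, 0.982 and 1.64 CPM in the 12 hpf pools and 13.5, 11.5, 16.8 and 14.4 CPM in the 18 hpf pools (log2FC 3.42 ± 0.21, FDR 4.9e-16). The posterior somite gene UNCX (ENSDARG00000102976) rose from 2.26 to 20.04 CPM (log2FC 3.14). foxd5, an early tailbud forkhead gene, fell from 24.5 to 5.65 CPM (log2FC -2.11). The somite factors MEOX1 (97.8 to 63.7 CPM, log2FC -0.62), TCF15 (25.7 to 18.9 CPM, log2FC -0.45) and FOXC1 (49.99 to 21.2 CPM, log2FC -1.24) fell as well.

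Skeletal muscle gave the largest coordinated rise. Among muscle regulators, 17 of the 20 fitted genes rose and 3 fell, with a median log2FC of 1.35. The contractile and excitation genes went further: 61 of the 74 fitted genes rose and 2 fell, with a median log2FC of 2.73, against 21.7% higher and 20.4% lower of all genes. MYMK (ENSDARG00000103988), the membrane protein that fuses myoblasts, measured 0.638, 0.449, 0.982 and 0.526 CPM in the 12 hpf pools and 27.0, 20.4, 27.6 and 31.1 CPM in the 18 hpf pools (log2FC 5.35 ± 0.27, FDR 6.5e-18). MYOG (ENSDARG00000009438), the myogenic factor of terminal differentiation, measured 0.510, 0.833, 0.281 and 1.05 CPM in the 12 hpf pools and 13.8, 8.44, 11.9 and 12.2 CPM in the 18 hpf pools (log2FC 4.07 ± 0.33, FDR 1.1e-12). The groups were far apart in both genes, and no pool of either time stood between them. The earlier commitment factor MYF5 went the other way (43.1 to 13.95 CPM, log2FC -1.63).

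Products of the differentiated fibre were already present at 12 hpf. cav3 (ENSDARG00000024141), the muscle caveolin, measured 1.59, 2.63, 3.09 and 2.34 CPM in the 12 hpf pools and 98.0, 82.3, 101 and 84.9 CPM in the 18 hpf pools (log2FC 5.25 ± 0.21, FDR 1.6e-20). tnnt2c (ENSDARG00000032242), a troponin T, measured 5.36, 7.31, 9.05 and 4.56 CPM in the 12 hpf pools and 267, 203, 239 and 227 CPM in the 18 hpf pools (log2FC 5.16 ± 0.26, FDR 6.4e-18). The spread within each time was small beside the distance between the times in both genes. TNNC1, the calcium-binding troponin, rose from 2.22 to 61.7 CPM (log2FC 4.81), and the list as a whole had sums from 1018 to 1224 CPM in the 12 hpf pools and from 6397 to 8089.5 CPM in the 18 hpf pools. Among heart genes, 16 of the 29 fitted genes rose and 4 fell, with a median log2FC of 0.80. MYL7 (ENSDARG00000019096), a myosin light chain of the heart tube, measured 0.0638, 0.128, 0.281 and 0.234 CPM in the 12 hpf pools and 15.12, 8.37, 10.8 and 8.78 CPM in the 18 hpf pools (log2FC 5.88 ± 0.30, FDR 5.2e-18). The cardiac mesoderm factors GATA5 (50.7 to 17.4 CPM, log2FC -1.54) and GATA6 (49.6 to 18.02 CPM, log2FC -1.46) fell over the same hours.

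**Figure D2:**
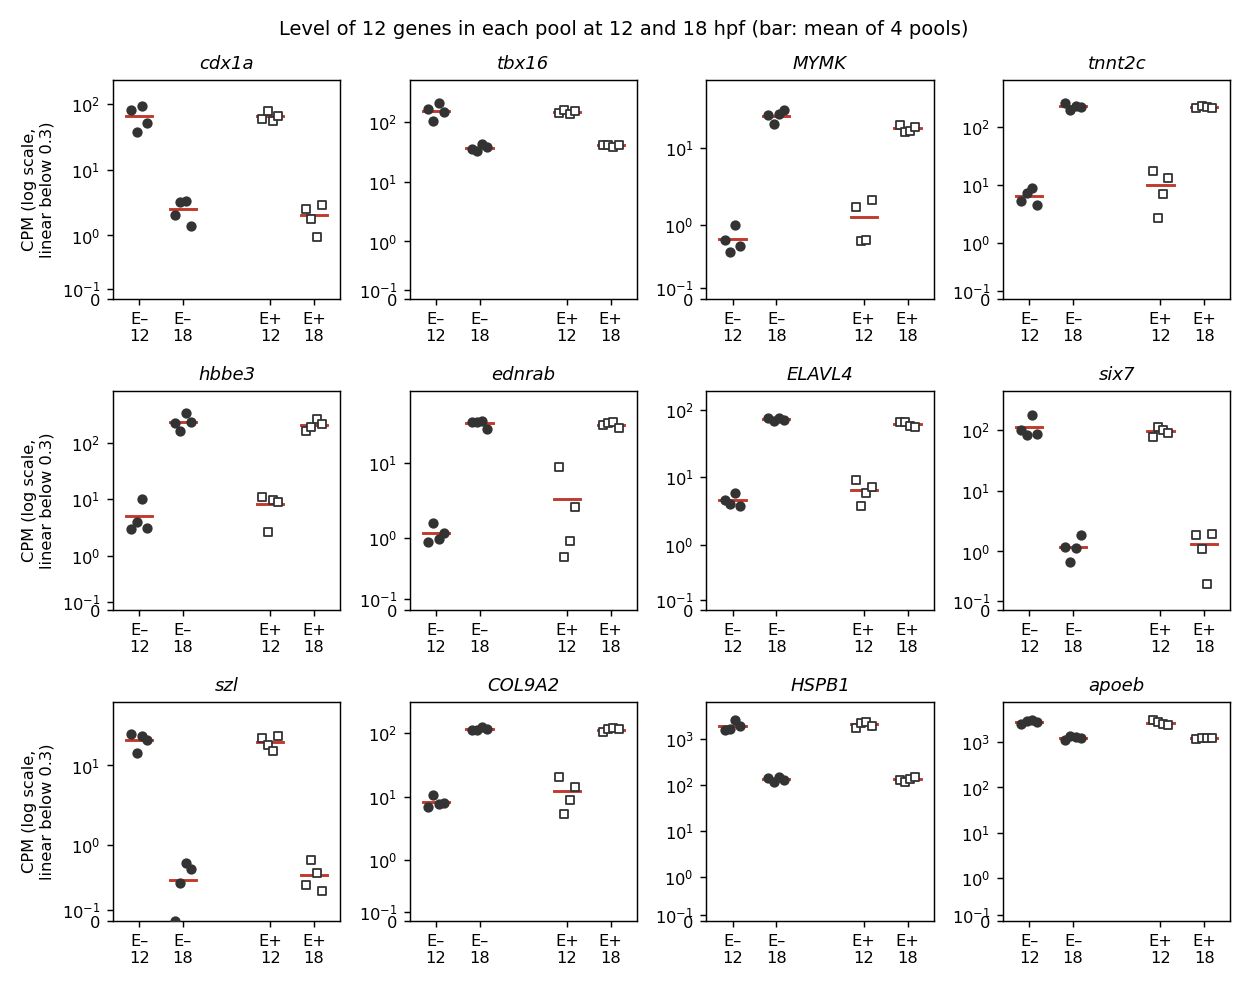
Each panel gives the level of 1 gene in CPM (y axis, logarithmic above 0.3 and linear below) in the 4 pools of each group, E– as filled circles and E+ as open squares, with red bars at the means. In all 12 panels the E– pools of 12 and 18 hpf do not overlap, from tnnt2c (6.57 to 234 CPM) to six7 (111 to 1.21 CPM). These genes were chosen by the size of their change, which favours such separation. Over all genes, the 18 hpf pools lay entirely above for 17.7% and entirely below for 16.4%.

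Most genes of primitive red blood cells and of vessels rose, while kidney genes went both ways. For primitive red blood cells, 25 of the 41 fitted genes rose and 4 fell, with a median log2FC of 1.19. Of the 11 globin chains, 10 rose and none fell, with a median log2FC of 4.58, and 6 of 8 heme synthesis genes rose as well (median 1.09). hbbe3 (ENSDARG00000038147), an embryonic beta globin, measured 2.999, 3.97, 10.1 and 3.10 CPM in the 12 hpf pools and 219.9, 159, 332 and 231 CPM in the 18 hpf pools (log2FC 5.57 ± 0.31, FDR 6.4e-17). hbae1.3 (ENSDARG00000089124), an embryonic alpha globin, measured 2.04, 3.08, 5.05 and 1.93 CPM in the 12 hpf pools and 97.4, 82.7, 174 and 104 CPM in the 18 hpf pools (log2FC 5.26 ± 0.29, FDR 6.6e-17). Pool 3 was the highest of the 12 hpf pools for hbbe3, and the times did not overlap for either gene. Globin chains are near-identical copies, so reads may be split among them. The carbonic anhydrase cahz fell from 40.6 to 12.1 CPM (log2FC -1.74).

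Of the myeloid list, 4 of the 15 fitted genes rose and 3 fell, with a median log2FC of 0.43, shares near those of all genes. LCP1, the leukocyte plastin, fell from 6.195 to 0.730 CPM (log2FC -3.09), while SPI1, the myeloid master factor, rose from 2.28 to 6.30 CPM (log2FC 1.47). In the endothelium, 17 of the 28 fitted genes rose and 5 fell, with a median log2FC of 0.83. clec14a (ENSDARG00000103533), a lectin of vessel walls, measured 0.574, 0.577, 0.632 and 0.701 CPM in the 12 hpf pools and 12.2, 8.97, 13.7 and 11.98 CPM in the 18 hpf pools (log2FC 4.22 ± 0.29, FDR 1.9e-14), with no overlap of the times. The apelin receptors aplnra (96.9 to 63.4 CPM, log2FC -0.61) and aplnrb (69.2 to 44.6 CPM, log2FC -0.63) fell, as did the ephrin EFNB2 (ENSDARG00000074050, 5.81 to 2.203 CPM, log2FC -1.40), and the list summed to 551 and 543 CPM. Among pronephros (embryonic kidney) genes, 12 of the 29 fitted genes rose and 8 fell (27.6%, against 20.4% of all genes), with a median log2FC of 0.04 and sums of 613 and 581 CPM. atp1a1a.4 (ENSDARG00000001870), a sodium pump subunit, measured 1.53, 3.27, 2.74 and 1.64 CPM in the 12 hpf pools and 86.3, 101, 112 and 93.5 CPM in the 18 hpf pools (log2FC 5.43 ± 0.26, FDR 1.5e-18). All its 18 hpf pools stood far above those of 12 hpf. SLC12A3, a salt cotransporter, rose from 0.394 to 12.7 CPM (log2FC 5.01). GATA3 and lhx1a, transcription factors of the early kidney, fell from 71.5 to 15.9 CPM (log2FC -2.17) and from 13.2 to 4.51 CPM (log2FC -1.55).

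In the nervous system, most proneural and neuron genes rose, eye genes went both ways and more hindbrain genes fell than rose. Of the neural progenitor list, 13 of the 29 fitted genes rose and 8 fell, with a median log2FC of 0.18. Among proneural factors, 13 of the 19 fitted genes rose and 1 fell, with a median log2FC of 1.44, and among genes of differentiating neurons, 43 of the 70 fitted genes rose and 6 fell, with a median log2FC of 0.99. ELAVL4 (ENSDARG00000045639), an RNA-binding protein of postmitotic neurons, measured 4.66, 3.97, 5.89 and 3.74 CPM in the 12 hpf pools and 75.7, 66.8, 74.0 and 70.4 CPM in the 18 hpf pools (log2FC 3.98 ± 0.16, FDR 1.1e-20). GFAP (ENSDARG00000025301), the intermediate filament of radial glia, measured 7.72, 15.12, 6.596 and 12.9 CPM in the 12 hpf pools and 98.2, 84.4, 108 and 95.3 CPM in the 18 hpf pools (log2FC 3.18 ± 0.27, FDR 7.1e-12). NEUROD1 (ENSDARG00000019566), a factor of neuron differentiation, measured 3.70, 5.26, 3.23 and 4.73 CPM in the 12 hpf pools and 17.5, 20.2, 13.9 and 13.5 CPM in the 18 hpf pools (log2FC 1.94 ± 0.20, FDR 3.7e-10). The 3 genes stood higher in every 18 hpf pool than in any 12 hpf pool.

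Among neuron genes, PHOX2A, a factor of noradrenergic neurons, fell from 41.9 to 18.4 CPM (log2FC -1.18). Of the eye field and retina list, 15 of the 30 fitted genes rose and 8 fell, with a median log2FC of 0.59. six7 (ENSDARG00000070107), a homeobox factor of the early eye field, measured 100.5, 81.9, 176 and 86.1 CPM in the 12 hpf pools and 1.196, 0.664, 1.12 and 1.84 CPM in the 18 hpf pools (log2FC -6.50 ± 0.30, FDR 6.6e-19). rx3 (ENSDARG00000052893), the homeobox gene that sets up the optic vesicle, measured 64.2, 45.6, 75.9 and 51.7 CPM in the 12 hpf pools and 4.18, 4.32, 5.01 and 6.204 CPM in the 18 hpf pools (log2FC -3.59 ± 0.18, FDR 3.7e-18). The times lay far apart in both eye field genes, with all 18 hpf pools low. rx1, another retinal homeobox gene, rose from 5.90 to 24.8 CPM (log2FC 2.07).

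At the midbrain-hindbrain boundary and in the hindbrain, 9 of the 33 fitted genes rose and 19 fell, with a median log2FC of -0.43. irx7, an Iroquois gene of the boundary region, fell from 92.6 to 16.1 CPM (log2FC -2.52) and her11, a repressor of neuron formation there, from 24.6 to 5.001 CPM (log2FC -2.29). The rhombomere gene mafbb rose from 7.03 to 46.0 CPM (log2FC 2.71) and en1b, an engrailed gene of the boundary, from 2.12 to 14.5 CPM (log2FC 2.78). For the ear and placodes, 13 of the 35 fitted genes rose and 12 fell, with a median log2FC of -0.01 (0.08 without composition scaling). oc90, an otolith matrix protein, rose from 26.3 to 98.1 CPM (log2FC 1.90), HMX3, a homeobox gene of the otic vesicle, from 1.08 to 9.74 CPM (log2FC 3.17), and stm, starmaker, a matrix protein of otoliths, fell from 325 to 101 CPM (log2FC -1.69).

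Neural crest genes went both ways. Of the list, 12 of the 31 fitted genes rose and 13 fell, with a median log2FC of 0.18. ednrab (ENSDARG00000062262), an endothelin receptor of crest-derived cells, measured 0.893, 1.602, 0.982 and 1.17 CPM in the 12 hpf pools and 35.5, 36.2, 37.3 and 28.4 CPM in the 18 hpf pools (log2FC 4.87 ± 0.41, FDR 3.2e-12), with every 18 hpf pool far above every 12 hpf pool. EDNRA (ENSDARG00000011876), another endothelin receptor, fell from 26.7 to 13.2 CPM (log2FC -1.01). Both PAX7 genes, factors of the neural plate border and of pigment precursors, rose (ENSDARG00000100398 from 2.995 to 28.7 CPM, log2FC 3.25, and ENSDARG00000070818 from 3.34 to 14.3 CPM, log2FC 2.08). The border and early crest genes ZIC2 (ENSDARG00000037178) and snai1a fell, from 83.4 to 27.7 CPM (log2FC -1.59) and from 64.0 to 23.6 CPM (log2FC -1.44). For pigment cells, 15 of the 22 fitted genes rose and 2 fell, with a median log2FC of 1.96. TFEC (ENSDARG00000098745), a factor of iridophores, measured 0.447, 0.449, 1.47 and 0.117 CPM in the 12 hpf pools and 7.77, 7.04, 6.14 and 8.60 CPM in the 18 hpf pools (log2FC 3.60 ± 0.37, FDR 3.7e-10). Pool 3 was the highest of the 12 hpf pools and still lay below every 18 hpf pool. gch2, which makes the pteridine precursor of xanthophores, rose from 1.69 to 9.54 CPM (log2FC 2.49) and MITF, the melanocyte factor, from 1.12 to 5.52 CPM (log2FC 2.296).

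In the notochord, collagen genes rose, while other matrix genes went both ways. Of the notochord, floor plate and Hedgehog list, 26 of the 52 fitted genes rose and 11 fell, with a median log2FC of 0.38, and all 9 collagen genes in it rose (median 2.59). COL9A2 (ENSDARG00000024492), a chain of type IX collagen, measured 6.76, 10.5, 7.65 and 7.83 CPM in the 12 hpf pools and 111, 113, 123 and 114 CPM in the 18 hpf pools (log2FC 3.82 ± 0.20, FDR 1.9e-17). COL2A1 (ENSDARG00000069093), type II collagen of the notochord sheath, rose from 39.6 to 419 CPM (log2FC 3.40). The chordin gene chrd (ENSDARG00000006110), a secreted Bmp inhibitor, measured 108, 97.9, 137 and 104 CPM in the 12 hpf pools and 11.1, 12.6, 10.8 and 9.58 CPM in the 18 hpf pools (log2FC -3.34 ± 0.14, FDR 7.8e-20), and noto, a notochord identity factor, fell from 23.1 to 6.39 CPM (log2FC -1.85). All 18 hpf pools lay above the 12 hpf pools for the collagen and below them for chrd. LAMA1 (ENSDARG00000102277), a laminin chain of basement membranes, fell from 19.8 to 5.12 CPM (log2FC -1.95). Of the LAMB1 genes, another laminin chain, ENSDARG00000101209 fell from 27.4 to 12.7 CPM (log2FC -1.11) and ENSDARG00000045524 rose from 0.665 to 1.84 CPM (log2FC 1.45), both named after their values were seen.

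Most collagen genes of another list, which can share members with the notochord list, rose too. Most of the enzymes in it that hydroxylate collagen fell. The list of vitamin C dependent hydroxylases and collagen gave 36 of 59 higher and 14 lower, with a median log2FC of 0.83. Split by role, 28 of 35 collagen chains rose and 1 fell (median 1.66), whereas 1 of 7 prolyl and lysyl hydroxylases rose and 5 fell (median -0.63). COL1A1 (ENSDARG00000035809), type I collagen, measured 2.297, 2.18, 3.30 and 2.104 CPM in the 12 hpf pools and 79.99, 82.8, 73.0 and 74.6 CPM in the 18 hpf pools (log2FC 4.98 ± 0.15, FDR 5.9e-24). POSTN (ENSDARG00000104267), periostin, a matrix protein of mesenchyme, measured 1.85, 3.52, 4.42 and 2.396 CPM in the 12 hpf pools and 149, 134, 148 and 134 CPM in the 18 hpf pools (log2FC 5.54 ± 0.25, FDR 3.4e-19). Both were low in all 12 hpf pools. The prolyl hydroxylase subunits P4HA1 (213 to 85.9 CPM, log2FC -1.31) and P4HA2 (66.3 to 29.7 CPM, log2FC -1.16) fell, and so did EGLN3 (ENSDARG00000032553), a prolyl hydroxylase of the hypoxia pathway (log2FC -2.86 ± 0.36, FDR 5.2e-08), a gene taken up again below. All 3 were uneven between the pools of 12 hpf, high in pools 1 and 3. P4HA1 measured 243, 134, 305 and 169 CPM there and P4HA2 88.7, 36.0, 98.9 and 41.7 CPM, and without pool 3 their log2FC was -1.08 and -0.90, both still called.

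In the skin, 20 of the 55 fitted genes rose and 20 fell, with a median log2FC of 0.06. Keratins were among both, and krt18b rose from 0.471 to 13.96 CPM (log2FC 4.85). krt18a.1 (ENSDARG00000018404), a simple epithelial keratin, measured 1151, 963, 1270.4 and 1158 CPM in the 12 hpf pools and 199, 255, 244 and 285 CPM in the 18 hpf pools (log2FC -2.21 ± 0.11, FDR 2.1e-18). ANXA1, an annexin, fell from 219.9 to 49.9 CPM (log2FC -2.14), and s100a10b, an S100 protein that binds annexin, rose from 4.24 to 45.6 CPM (log2FC 3.43). Of the hatching gland list, 4 of the 14 fitted genes rose and 6 fell, with a median log2FC of -0.29. he1.2 (ENSDARG00000019122), a hatching enzyme that digests the chorion, measured 72.1, 127, 63.2 and 127 CPM in the 12 hpf pools and 738, 725, 873 and 643 CPM in the 18 hpf pools (log2FC 2.93 ± 0.22, FDR 2.7e-13), and he1.1 rose from 161 to 694 CPM (log2FC 2.104). The enzymes rose while early gland factors such as klf17 fell (24.5 to 10.8 CPM, log2FC -1.17).

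Most genes of the list of maternal and blastula to gastrula regulators fell, and germ line genes fell or were not called. The first list was not split into maternal and later genes. For endoderm and its organs, 8 of the 34 fitted genes rose and 11 fell, with a median log2FC of -0.34, and for germ plasm and primordial germ cells, 0 of the 16 fitted genes rose and 9 fell, with a median log2FC of -0.77. DDX4 (ENSDARG00000014373), the germ cell helicase vasa, measured 13.2, 12.8, 16.8 and 14.4 CPM in the 12 hpf pools and 6.04, 7.84, 8.64 and 7.68 CPM in the 18 hpf pools (log2FC -0.92 ± 0.17, FDR 4.4e-05). Its times did not overlap. Of the maternal and blastula to gastrula regulators, 1 of the 43 fitted genes rose and 36 fell, with a median log2FC of -1.56, against 20.4% lower of all genes. szl (ENSDARG00000099637), sizzled, a feedback inhibitor of Bmp processing, measured 25.3, 14.2, 23.6 and 20.98 CPM in the 12 hpf pools and 0, 0.332, 0.594 and 0.491 CPM in the 18 hpf pools (log2FC -5.88 ± 0.39, FDR 1.0e-14). GSC (ENSDARG00000059073), the organizer factor goosecoid, measured 14.7, 6.09, 26.7 and 8.77 CPM in the 12 hpf pools and 0.538, 0, 0.330 and 0.246 CPM in the 18 hpf pools (log2FC -5.59 ± 0.53, FDR 7.4e-11). Both were near the lower limit of detection at 18 hpf, and 1 of the 18 hpf pools held no szl read and another no GSC read. The ventral homeobox repressor ved fell from 9.98 to 0.681 CPM (log2FC -3.86).

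Signalling pathways did not move as blocks. In the Fgf list, 8 of the 35 fitted genes rose and 15 fell, with a median log2FC of -0.37, and the falls included the pathway's target and feedback genes etv5b (95.4 to 47.5 CPM, log2FC -1.004) and IL17RD (45.6 to 21.8 CPM, log2FC -1.07). In the Wnt list, 15 of the 51 fitted genes rose and 16 fell, with a median log2FC of 0.02: the secreted inhibitor SFRP2 rose (2.25 to 17.0 CPM, log2FC 2.904) and frzb, another secreted inhibitor, fell (22.005 to 1.88 CPM, log2FC -3.54). In the Bmp list, 16 of the 47 fitted genes rose and 19 fell, with a median log2FC of 0.06, with BMP5 higher (0.424 to 8.53 CPM, log2FC 4.29) and bmp7a lower (26.8 to 3.90 CPM, log2FC -2.78). In retinoic acid handling, 7 of the 23 fitted genes rose and 11 fell, with a median log2FC of -0.08 (0.04 without composition scaling). CYP26A1, which degrades retinoic acid, fell from 45.4 to 11.3 CPM (log2FC -2.004), and RBP4, the plasma retinol carrier, rose from 7.87 to 54.4 CPM (log2FC 2.78).

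Hox genes assign position along the body axis in the order of their paralog numbers, low numbers at the head end. The direction of change differed along that order. Of 11 genes in groups 1 to 4, 6 rose and 2 fell (median 0.31), and of 11 in groups 5 to 8, 1 rose and 4 fell (median -0.31). In group 9, 4 of 5 fell. In group 10, 3 of 4 rose. In groups 11 to 13, 12 of 13 rose and none fell, with a median log2FC of 2.36. Most of these 13 were scarce at 12 hpf, so their log2FC rests on few reads. HOXB13 stood at 0.104 and 0.452 CPM (FDR 0.058) and hoxa13a at 0.526 and 1.64 CPM, whereas HOXA11 (ENSDARG00000007009) rose from 23.95 to 78.5 CPM. HOXC13 (ENSDARG00000070353) measured 0.191, 0.833, 0.281 and 1.64 CPM in the 12 hpf pools and 8.13, 9.43, 9.30 and 7.003 CPM in the 18 hpf pools (log2FC 3.47 ± 0.33, FDR 6.4e-11). hoxb10a (ENSDARG00000011579) measured 71.6, 82.5, 75.6 and 80.1 CPM in the 12 hpf pools and 39.6, 47.8, 43.9 and 34.8 CPM in the 18 hpf pools (log2FC -0.90 ± 0.11, FDR 3.0e-08), and hoxb1b (ENSDARG00000054033) measured 95.6, 87.3, 119 and 97.4 CPM in the 12 hpf pools and 43.7, 48.4, 52.0 and 38.3 CPM in the 18 hpf pools (log2FC -1.13 ± 0.10, FDR 1.4e-11). In none of these 3 did the times overlap.

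**Figure D3:**
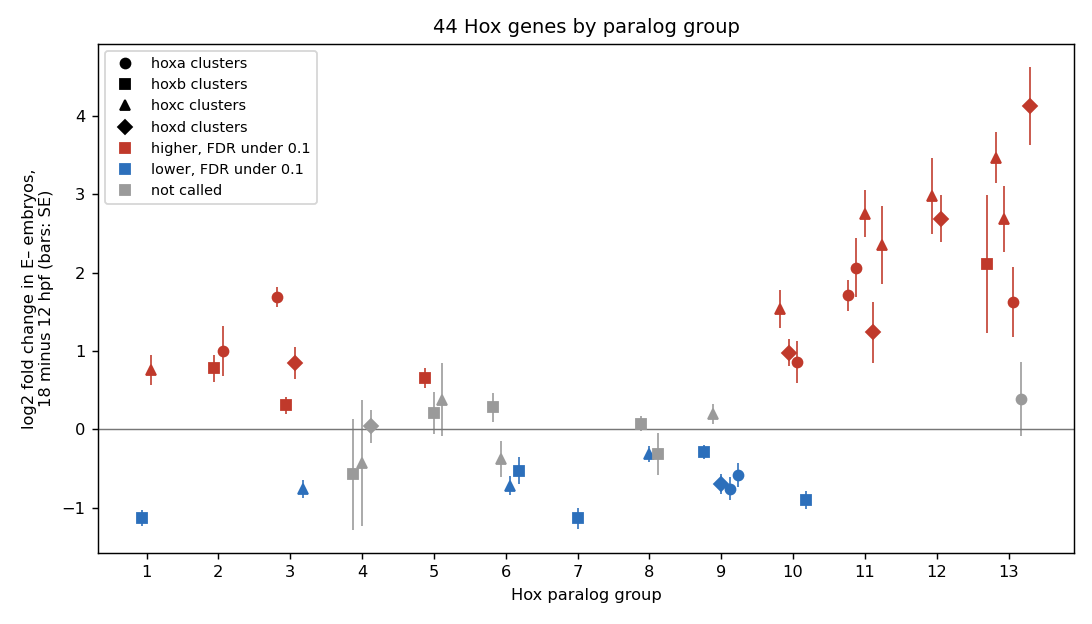
The log2FC of 44 Hox genes in E– embryos (18 minus 12 hpf, y axis, bars are SE) by paralog group (x axis), with symbols for the hoxa to hoxd clusters and colours for the call. Points of groups 11 to 13 lie above 0, with a median of 2.36, and 4 of the 5 in group 9 lie below 0 and were called.

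VitE travels with lipoproteins and is sorted in the liver by the tocopherol transfer protein. Of the list for yolk lipoproteins and VitE handling, 16 of the 39 fitted genes rose and 9 fell, with a median log2FC of 0.08. Apolipoproteins mostly rose: 11 of 13 were higher and 1 lower, with a median of 1.08. apobb.1 (ENSDARG00000022767), the structural protein of yolk-derived lipoprotein particles, measured 454, 579, 429 and 501 CPM in the 12 hpf pools and 1275, 1204, 1178 and 999 CPM in the 18 hpf pools (log2FC 1.25 ± 0.12, FDR 6.4e-11). apoeb (ENSDARG00000040295), the apolipoprotein E of the yolk syncytial layer, was the member that fell and measured 2491, 2932, 3071 and 2794 CPM in the 12 hpf pools and 1138, 1354, 1295 and 1228 CPM in the 18 hpf pools (log2FC -1.17 ± 0.08, FDR 3.6e-14). apoea (ENSDARG00000102004), its paralog, measured 0.128, 1.03, 0.982 and 0.292 CPM in the 12 hpf pools and 9.80, 13.95, 10.95 and 10.2 CPM in the 18 hpf pools (log2FC 4.22 ± 0.41, FDR 1.3e-10). The times separated in each of the 3 genes, and the 2 apolipoprotein E genes moved in opposite directions.

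TTPA (ENSDARG00000027584), the tocopherol transfer protein, was scarce and not called: it measured 1.08, 0.449, 0.842 and 0.760 CPM in the 12 hpf pools and 1.02, 0.797, 0.330 and 0.123 CPM in the 18 hpf pools (log2FC -0.46 ± 0.67, FDR 0.649), and the times overlapped. The lipid transfer gene MTTP, which loads lipid onto apolipoprotein B, fell from 94.1 to 38.4 CPM (log2FC -1.29), as did PLTP (11.6 to 4.38 CPM, log2FC -1.41) and CD36, a fatty acid receptor (10.8 to 3.32 CPM, log2FC -1.70). The E– diet was not checked from these counts, which hold no measure of tocopherol.

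More antioxidant enzymes rose than fell, by small amounts. Of the list, 13 of the 34 fitted genes rose and 3 fell, with a median log2FC of 0.19. Peroxiredoxins, which reduce peroxides, gave 4 of 5 higher, glutathione peroxidases 3 of 9, and superoxide dismutases none of 3 with 1 lower. PRDX3 (ENSDARG00000032102), the mitochondrial peroxiredoxin, measured 9.70, 15.06, 15.3 and 16.4 CPM in the 12 hpf pools and 36.8, 34.3, 30.9 and 35.1 CPM in the 18 hpf pools (log2FC 1.28 ± 0.14, FDR 2.4e-09). gpx4a (ENSDARG00000068478), which reduces lipid hydroperoxides in membranes, measured 137, 167, 158 and 151 CPM in the 12 hpf pools and 207, 265, 218 and 203 CPM in the 18 hpf pools (log2FC 0.54 ± 0.12, FDR 3.3e-04). Both genes were higher in all 18 hpf pools. Over the list, the 18 hpf pools lay entirely above for 5 of 34 genes and entirely below for 1, against 17.7% and 16.4% of all genes. SOD2, the mitochondrial superoxide dismutase and the 1 dismutase that fell (3.42 to 1.28 CPM, log2FC -1.41), was singled out after its values were seen.

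Genes under the oxidative stress factor Nrf2, with glutathione and heme genes, went both ways: 14 of the 42 fitted genes rose and 11 fell, with a median log2FC of 0.10. These were 33.3% and 26.2%, against 21.7% and 20.4% of all genes. HMOX1 (ENSDARG00000027529), heme oxygenase, measured 5.10, 4.29, 5.47 and 4.91 CPM in the 12 hpf pools and 9.80, 14.5, 13.1 and 14.1 CPM in the 18 hpf pools (log2FC 1.38 ± 0.18, FDR 1.2e-07). NQO1 (ENSDARG00000010250), a quinone reductase, measured 66.7, 66.5, 60.8 and 63.8 CPM in the 12 hpf pools and 28.1, 25.6, 26.1 and 25.2 CPM in the 18 hpf pools (log2FC -1.296 ± 0.12, FDR 8.3e-11). Neither gene's times overlapped, and the directions were opposite. SLC3A2, a subunit of the cystine transporter, fell from 15.5 to 2.87 CPM (log2FC -2.42). For lipid peroxidation and polyunsaturated fatty acids, 20 of the 45 fitted genes rose and 8 fell, with a median log2FC of 0.20. SLC40A1, the iron exporter, rose from 5.56 to 33.3 CPM (log2FC 2.58), and ACSL5, which activates fatty acids, fell from 17.5 to 7.15 CPM (log2FC -1.295).

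Most nuclear genes of the respiratory chain, of the tricarboxylic acid cycle and of cytosolic ribosomes rose, by small amounts. Among nuclear genes of the respiratory chain and ATP synthase, 65 of the 102 fitted genes rose and 2 fell, with a median log2FC of 0.41. In the tricarboxylic acid cycle, 22 of the 36 fitted genes rose and 2 fell, with a median log2FC of 0.48. Of the 13 mitochondrially encoded genes listed, 4 rose (30.8%, against 21.7% of all genes) and none fell, with a median log2FC of 0.10. Their sums overlapped, at 9653, 13506, 9651 and 12708 CPM in the 12 hpf pools and 13947, 11745, 13917 and 13670 CPM in the 18 hpf pools, and 12 hpf pools 1 and 3 were the low ones. MT-CYB (ENSDARG00000063924), cytochrome b, measured 1785, 2318, 1921 and 2300.5 CPM in the 12 hpf pools and 2523, 2355, 2892 and 2681 CPM in the 18 hpf pools (log2FC 0.33 ± 0.10, FDR 0.00677). It was the 1 gene of the 13 whose times did not overlap. Cytosolic ribosomal proteins were the most uniform list: 77 of the 80 fitted genes rose and 1 fell, with a median log2FC of 0.55. RPS2 (ENSDARG00000077291), of the small subunit, measured 2349.5, 2473, 2571 and 2585 CPM in the 12 hpf pools and 4497, 4077, 4344 and 3566 CPM in the 18 hpf pools (log2FC 0.72 ± 0.08, FDR 7.7e-10), with all 18 hpf pools above those of 12 hpf.

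Glycolysis was mixed: 14 of the 46 fitted genes rose (30.4%) and 10 fell (21.7%), with a median log2FC of 0.22. Of all genes, 21.7% rose and 20.4% fell, so the share that fell was near that of all genes. ALDOA (ENSDARG00000034470), the muscle aldolase, rose from 6.30 to 108 CPM (log2FC 4.103), while PFKFB3, an activator of phosphofructokinase, and SLC16A3, a lactate exporter, fell (29.3 to 3.52 CPM, log2FC -3.05 and 14.7 to 1.97 CPM, log2FC -2.89). The pentose phosphate and NADPH list gave 3 of 15 higher and 5 lower. Without 12 hpf pool 3, which is described below, the falls in glycolysis numbered 6 and those in the pentose phosphate list 3.

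Cell cycle genes fell more often than they rose. In the mitosis list, 3 of the 54 fitted genes rose and 29 fell, with a median log2FC of -0.28. CCNB2 (ENSDARG00000036180), a mitotic cyclin, measured 19.8, 20.1, 24.1 and 21.2 CPM in the 12 hpf pools and 11.4, 12.3, 10.6 and 11.9 CPM in the 18 hpf pools (log2FC -0.89 ± 0.17, FDR 5.0e-05), with the times apart. In the DNA replication list, 7 of 52 rose and 18 fell, and in the list of p53 and its targets, 8 of 32 rose and 11 fell, with medians of -0.12 and -0.10 (-0.01 and 0.01 without composition scaling). TP53INP1, a p53-induced nuclear protein, rose from 14.6 to 28.3 CPM (log2FC 0.96), and sesn3, sestrin 3, fell from 198 to 70.8 CPM (log2FC -1.49). The mTOR list gave 17 of 57 higher (29.8%, against 21.7% of all genes) and 13 lower (22.8%, against 20.4%). EIF4EBP2, a repressor of translation initiation, rose from 41.6 to 94.1 CPM (log2FC 1.18). Falls included akt1s1 (318 to 157 CPM) and DDIT4 (18.7 to 8.01 CPM), both highest in E– pools 1 and 3 among those of 12 hpf.

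Chaperones rose more often than they fell: 29 of the 64 fitted genes rose and 7 fell, with a median log2FC of 0.27. The largest rise was in hspb9, a small heat shock protein (0.156 to 4.12 CPM, log2FC 4.63), a gene named after its values were seen. The largest fall was in another of that class. HSPB1 (ENSDARG00000041065) measured 1568, 1630.5, 2498 and 1873 CPM in the 12 hpf pools and 137, 115, 146 and 127 CPM in the 18 hpf pools (log2FC -3.85 ± 0.12, FDR 6.3e-23). hsp90aa1.1 (ENSDARG00000010478), the Hsp90 that assembles muscle myosin, measured 126, 218, 94.2 and 165 CPM in the 12 hpf pools and 727, 613, 734 and 613 CPM in the 18 hpf pools (log2FC 2.15 ± 0.15, FDR 5.3e-14), and all 4 hsp90 genes rose (median 1.31). For both genes the pools of either time lay far apart.

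The E– pools of 12 hpf were not alike. EGLN3 (ENSDARG00000032553) measured 156, 29.6, 237 and 59.3 CPM in pools 1 to 4, high in pools 1 and 3. PFKFB3 (ENSDARG00000001953) measured 42.2, 9.74, 50.9 and 14.2 CPM and SLC16A3 (ENSDARG00000045051) 17.6, 3.46, 28.9 and 8.94 CPM in the same pools. All 3 are targets of the hypoxia factor in mammals, and their order between pools was the same. Genes of early stages shared it: SOX17 (ENSDARG00000101717), the endoderm factor, measured 15.4, 2.95, 26.2 and 4.56 CPM, GSC 14.7, 6.09, 26.7 and 8.77 CPM and pou5f3 (ENSDARG00000044774), the pluripotency factor, 32.0, 14.2, 80.3 and 19.7 CPM. At 18 hpf EGLN3 ran from 13.03 to 19.5 CPM, and in the E+ pools of 12 hpf from 27.3 to 59.6 CPM. Those E+ pools were uneven for early genes too, with pool 2 the highest. SOX17 measured 5.35, 13.4, 7.11 and 6.82 CPM there, GSC 8.13, 19.3, 9.64 and 8.46 CPM and pou5f3 17.1, 33.7, 24.5 and 24.5 CPM. Pools 1 and 2 were sequenced on lane 7 and pools 3 and 4 on lane 8. E– pool 3 of 12 hpf also had the largest share of the most abundant gene, 39.2%. Several genes given above by their means were also high in E– pools 1 and 3 of 12 hpf. CYP26A1 measured 47.1, 21.1, 88.2 and 25.2 CPM and PHOX2A 48.4, 19.4, 74.0 and 25.7 CPM in the 12 hpf pools. There sesn3 measured 210, 102, 337 and 143 CPM and SLC3A2 16.6, 9.61, 27.9 and 7.71 CPM. All these genes were brought together after their values were seen, and what lay behind their spread was not tested. Without pool 3, 3971 genes were higher and 3443 lower, and the log2FC of EGLN3 was -2.30, of PFKFB3 -2.64, of SLC16A3 -2.34, of SOX17 -4.19, of GSC -5.08 and of pou5f3 -2.08, all still called.

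**Figure D4:**
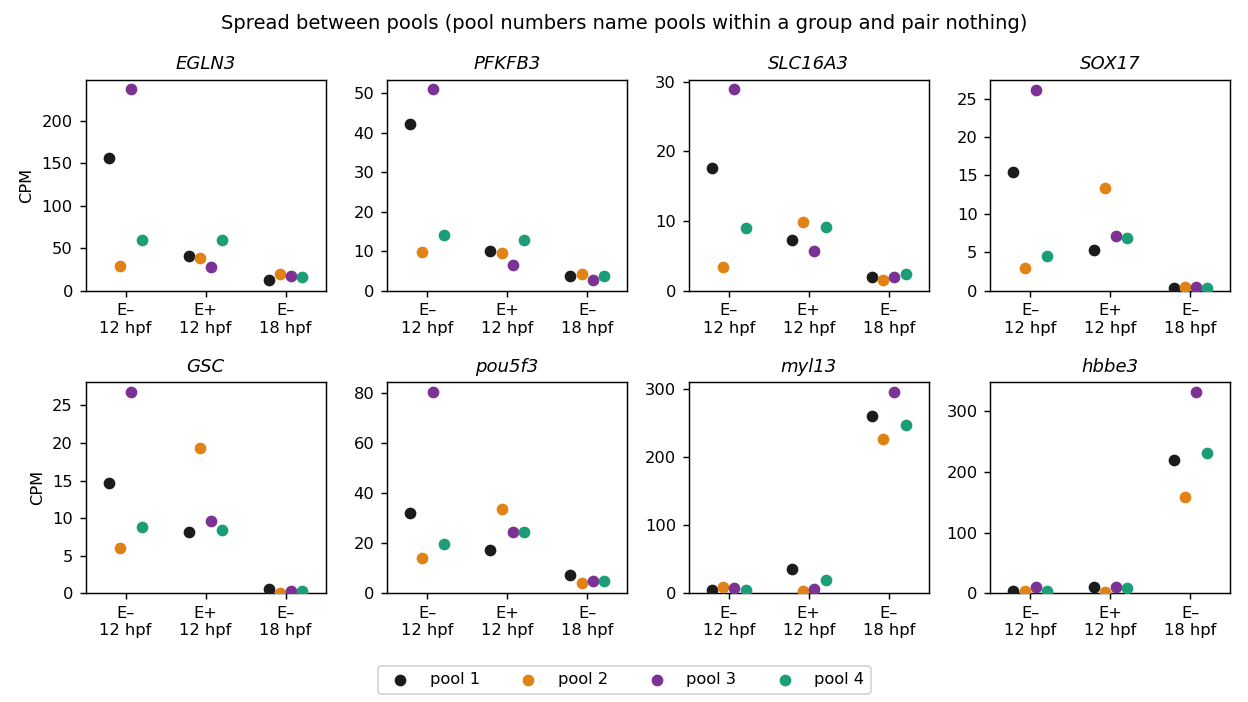
Levels in CPM (y axis) of 8 genes in single pools of E– embryos at 12 hpf, E+ embryos at 12 hpf and E– embryos at 18 hpf, coloured by pool number, which names pools within a group only. For EGLN3, PFKFB3, SLC16A3, SOX17, GSC and pou5f3 the E– pools 1 and 3 of 12 hpf stand above pools 2 and 4. The E+ pools of 12 hpf are uneven too. Among them SOX17, GSC and pou5f3 are highest in pool 2, and myl13 runs from 3.62 to 35.6 CPM.

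The same hours were then compared between diets, with no pool shared between these comparisons. Embryos of both diets were chosen at the same landmarks, so these comparisons do not measure the pace of development. In E+ embryos, 4475 genes rose (22.8%) and 4135 fell (21.1%). Of these, 3352 also rose in E– embryos, out of 4259, and 2980 also fell, out of 4003. Another 8 genes were called in opposite directions. Across the 19597 genes, which are not independent replicates, the log2FC of both diets had a Pearson's r of 0.806 and a Spearman's rho of 0.747, and its median size was 0.43 in E– and 0.45 in E+ embryos. A gene called under 1 diet only is not shown to differ: 1922 were called in E– and 2270 in E+ embryos alone, whereas the difference of the changes itself was called for 8 genes (0.0408%). It had an unadjusted p under 0.05 for 1479.

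In 7 of these 8 genes the log2FC was higher in E– than in E+ embryos. NR2F1 (ENSDARG00000017168), a nuclear receptor of the hindbrain and forebrain, had a log2FC of 5.82 in E– and 3.45 in E+ embryos, a difference of 2.38 ± 0.47 (SE, FDR 0.056). It measured 0.128, 0.449, 0.702 and 0.351 CPM in the 12 hpf pools and 22.5, 20.995, 24.5 and 24.4 CPM in the 18 hpf pools of E– embryos, and 3.69, 0.669, 0.828 and 2.4 CPM and 20.1, 16.7, 25.8 and 19.8 CPM in the E+ pools of 12 and 18 hpf. The diets overlapped at both times, and E+ pools 1 and 4 were the highest at 12 hpf. COL1A1 had a log2FC of 4.98 in E– and 3.85 in E+ embryos, a difference of 1.13 ± 0.20 (SE, FDR 0.0256), with 5.99, 3.01, 4.77 and 3.60 CPM in the E+ pools of 12 hpf. MRPS2 (ENSDARG00000103198), a mitochondrial ribosomal protein, had a log2FC of 0.36 in E– and -0.73 in E+ embryos, a difference of 1.08 ± 0.23 (SE, FDR 0.0794).

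si:dkey-154b15.1 (ENSDARG00000057010), for which no role is annotated, had a log2FC of 0.03 in E– and -1.94 in E+ embryos, a difference of 1.97 ± 0.35 (SE, FDR 0.0256). Its E– pools overlapped, at 7.08, 6.28, 3.37 and 7.42 CPM in the 12 hpf pools and 4.84, 4.72, 6.99 and 8.17 CPM in the 18 hpf pools, whereas those of E+ embryos fell from 11.8, 7.69, 6.58 and 9.16 CPM to 2.80, 1.59, 2.24 and 2.60 CPM. nfkbiaa (ENSDARG00000005481), an inhibitor of NF-kappaB, was the gene with the lower log2FC in E– embryos, -0.82 in E– and 1.29 in E+ embryos, a difference of -2.11 ± 0.40 (SE, FDR 0.0443). The RNA-binding proteins rbm4.1 (ENSDARG00000036386) and tia1l (ENSDARG00000026476) had a log2FC of 0.05 in E– and -0.86 in E+ embryos, a difference of 0.90 ± 0.18 (SE, FDR 0.056) and of -0.74 in E– and -1.49 in E+ embryos, a difference of 0.75 ± 0.16 (SE, FDR 0.0794). DESeq2 called 104 genes for the difference, and a fit of the 16 pools compared called none, so this count depends on the fit. It also fell to 0 without E+ 12 hpf pool 1 and without E+ 18 hpf pool 2.

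**Figure D5:**
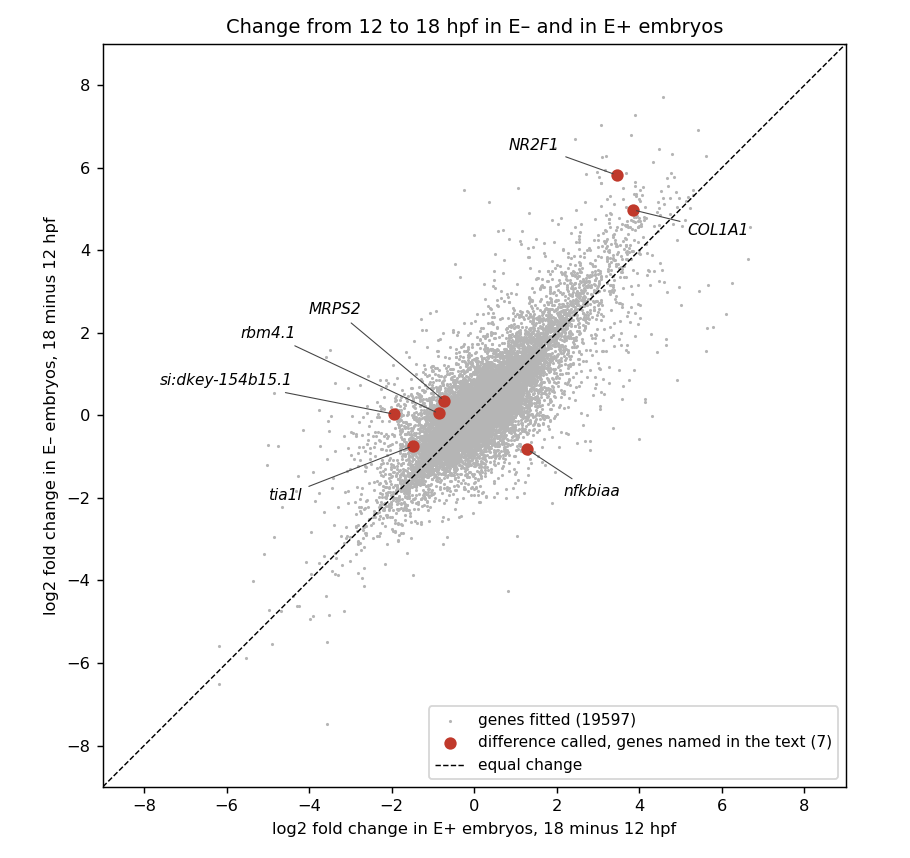
The log2FC from 12 to 18 hpf in E+ embryos (x axis) and in E– embryos (y axis) of 19597 genes, with the line of equal change dashed and 7 of the 8 genes called for the difference in red. Most points lie along the line (Pearson's r 0.806 across genes).

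Contractile muscle genes had the larger log2FC in E– embryos for 55 of 74 genes, against 9814 of all 19597. Among genes that rose in E– embryos the count was 51 of 61 in the list and 2759 of 4259 over all. Choosing genes by their rise in E– embryos favours a larger change there, in the list and over all. None of the 74 was called for the difference. The count was not particular to muscle: it was 16 of 19 for proneural factors, 17 of 22 for pigment cells and 15 of 20 for paraxial mesoderm. It went the other way for cytosolic ribosomal proteins (15 of 80) and proteasome subunits (13 of 43). Members of a list were measured in the same pools and are not independent. The contractile list summed to 1018 to 1224 CPM in the 12 hpf pools of E– and 967 to 1578 CPM in those of E+ embryos. By 18 hpf the sums ran from 6397 to 8089.5 CPM and from 6783 to 7637 CPM, so the diets overlapped at both times. Among the members, myl13 (ENSDARG00000042245), a myosin light chain, measured 35.6, 3.62, 6.77 and 18.9 CPM in the E+ pools and 4.98, 8.97, 7.58 and 4.56 CPM in the E– pools of 12 hpf. E+ pools 1 and 4 held the high values for myl13 as they did for NR2F1, and their part in these counts was not tested.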

How the data were processed

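RNA of 24 pools, each of 10 zebrafish embryos, was sequenced as 3′ mRNA libraries on lanes 7 and 8. The authors checked reads with FastQC 0.11.5, trimmed them with bbduk and aligned them with STAR 2.7.3a to GRCz11. The deposited values are raw read counts per Ensembl gene, not normalized, and tallies of unassigned reads in the same columns were dropped. All 24 columns were matched to pools by name, with 0 columns unused. Such counts measure transcript ends and not lengths, so they are read between pools only.

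Groups were taken from the diet and time labels. Of 32520 genes, 29109 held a read and 19597 passed filterByExpr over the 6 groups. Counts of all 24 pools were scaled by the TMM method with singleton pairing and tested with edgeR 4.0.16 (R 4.3.3, limma 3.58.1), by the quasi-likelihood F-test with no covariate, and the difference between diets as the contrast of the 2 changes. P-values were adjusted by Benjamini and Hochberg over all genes tested, at an FDR of 0.1, and SE is the size of log2FC divided by the square root of F. CPM values use the scaled library sizes. Alternatives included DESeq2 1.42.0, other scaling, filters, thresholds, single lanes, lane or replicate number as a term, and leaving out each pool. Figures were drawn with Python 3.11.15 and matplotlib 3.10.9.

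Symbols were found for 29201 of the 32520 identifiers, and genes without one took 31.9% of counts. The 50 gene lists held 2032 entries, of which 1942 were matched to 2042 identifiers with overlap between lists. Of these, 2032 held a read and 1879 were fitted. The members and lists were chosen with earlier results of these data known. Named genes are the called genes of each list with the largest log2FC, up to 4 in each direction with a group mean of at least 5 CPM, members that define a list and were not called, the 10 largest rises and falls with a mean of at least 20 CPM, the 5 genes with the most reads, and the genes called for the difference. Some called genes outside this rule, such as her7 and gpx4a, are given as well. Values per pool are given mainly for the first genes of each list, and choice by size of change favours pools that do not overlap. Replicate pools differed by more than sampling noise, the chi-square over its degrees of freedom running from 4.88 to 20.7. The pipeline was tested on simulated data: of 200 genes changed by a log2FC of 1.5 among 19597, the test of E– 18 against 12 hpf recovered 150 with 16 false calls, including 125 of 125 with a mean of at least 50 counts, and the test of the difference 122 with 17 false calls. Promoter sequences were not used here, and a few genes within the rule for named genes are not reported here.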

Additional observations from a re-analysis of the deposited data

Results flagged for a closer look

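Among the 140 groups of 4 pools examined, 3 held a pool far from the others, by a gap past Dixon's critical value. These groups count each gene with values per pool and each library measure in E– embryos. In a single group, chance alone passes that value about 1 time in 20. That is fewer than this rate gives, so the 3 are listed as values only. At 12 hpf, E– pool 3 held 10.1 CPM of hbbe3, an embryonic globin, where the other 3 pools held 3.00, 3.97 and 3.10 CPM. The same pool held 3.30 CPM of COL1A1, type I collagen, where the others ran from 2.104 to 2.297 CPM. At 18 hpf, E– pool 2 had reads in 22854 genes, fewer than the other 3 pools.

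The change from 12 to 18 hpf differed between E– and E+ embryos for 8 genes by edgeR's test of the difference itself. Among those given here, the log2FC was higher in E– embryos by 2.38 for NR2F1 (ENSDARG00000017168), by 1.97 for si:dkey-154b15.1, by 1.13 for COL1A1, by 1.08 for MRPS2, by 0.90 for rbm4.1 and by 0.75 for tia1l. For nfkbiaa, an inhibitor of NF-kappaB, the difference was -2.11, with a fall in E– and a rise in E+ embryos.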

How the results depend on the processing

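The counts of 4259 genes higher and 4003 lower stayed within 1.5 times under the other settings tried, except with lane 7 pools only (2678 and 2220) and, for the lower genes, at an FDR of 0.01 (2480). Leaving out single pools gave 3968 to 4136 higher and 3443 to 3903 lower, and, at a log2FC of at least 1, 2167 to 2348 and 817 to 1050. The 8 genes of the diet difference were the least stable count: 3 at an FDR of 0.05, 0 at 0.01, 104 with DESeq2, 15 with TMM scaling, 15 with no scaling, 118 over all genes with at least 1 read, 0 with lane 7 pools only, 0 with lane 8 pools only and 0 with only the pools compared. Leaving out single pools gave 0 to 93 genes, 0 without E+ 12 hpf pool 1 or E+ 18 hpf pool 2, 2 without E– 18 hpf pool 1, 28 without E– 18 hpf pool 2 and 93 without E+ 12 hpf pool 2. The causes were not tested.

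With the replicate number as a block, 4233 genes were higher and 3975 lower (2275 and 968 at a log2FC of at least 1), 4486 and 4102 in E+ embryos, and the difference was called for 17. The numbers do not pair the pools: deviations of same-numbered E– pools correlated by -0.05, 0.02, 0.04 and 0.03 over 9798 genes. Among 343 named genes and 22 settings, 55 lost the call in at least 1 setting and 1 reversed: RSPH4A, at a log2FC of -0.65 with lane 8 pools only against 1.02. All 8 difference genes lost the call in at least 1 setting and none reversed. Of 50 list medians, 18 moved by more than their spread between pools in at least 1 setting. Without E– 12 hpf pool 3, chosen for this after seeing the data, 4 of 100 list counts moved by over 1.5 times: falls in pigment (1), respiratory chain (0), glycolysis (6) and pentose phosphate genes (3). Genes under a few CPM rest on few reads, and 3 reads over a group are 0.0479 CPM at 12 hpf.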

Other observations

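Gene groups outside the tissues above gave the following counts, beside 21.7% higher and 20.4% lower of all genes. Of the motile cilia list, 15 of the 36 fitted genes rose and 6 fell, with a median log2FC of 0.45. CCDC39, which sets the spacing of the axoneme, rose from 2.94 to 8.24 CPM (log2FC 1.49), and RFX2, a transcription factor of ciliogenesis, fell from 64.4 to 39.3 CPM (log2FC -0.71). Of the lens list, 8 of the 21 fitted genes rose and 7 fell, with a median log2FC of 0.61. PROX1, a lens fibre factor, rose from 2.41 to 8.91 CPM (log2FC 1.88) and pitx3, a lens placode factor, fell from 19.3 to 13.04 CPM (log2FC -0.57).

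In the methyl donor and choline cycle, 14 of the 36 fitted genes rose and 5 fell, with a median log2FC of 0.27. AHCY, which clears S-adenosylhomocysteine, rose from 53.4 to 107 CPM (log2FC 0.9996). dnmt3bb.2, a de novo DNA methyltransferase, fell from 193 to 85.7 CPM (log2FC -1.17), while DNMT3A (ENSDARG00000015566), another of that class, rose from 15.6 to 41.997 CPM (log2FC 1.43). Of the proteasome subunits, 3 of the 43 fitted genes rose and 13 fell, with a median log2FC of -0.07 (0.03 without composition scaling). psma2a, a subunit of the core particle, fell from 77.9 to 59.5 CPM (log2FC -0.39), and PSMD3, of the regulatory particle, rose from 24.8 to 32.1 CPM (log2FC 0.37).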
